A study of Mus musculus with 9 samples.

Results

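The serpins, a superfamily of protease inhibitors and their non-inhibitory relatives, were examined as all genes whose symbol in the array annotation starts with Serpin. The rule took probe sets with that single symbol and kept the brightest for each gene, which gave 54 serpin genes from 55 probe sets, among 22180 genes measured in all. By clade, the subfamily letter in the symbol, there were 20 genes of clade a, 25 of clade b, 2 each of clades f and i, and 1 each of clades c, d, e, g and h. A RefSeq table of mouse genes lists 69 serpin symbols, and the other 15 were not analysed here, among them 5 protein-coding Serpina3 genes (Serpina3c, Serpina3f, Serpina3g, Serpina3k and Serpina3m).

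The cells came from mouse embryonic stem cells carrying a transgene in which the promoter of Afp, the alpha-fetoprotein gene, drives green fluorescent protein. They were grown as embryoid bodies on gelatin, in medium with serum, transferrin and ascorbic acid, and reporter-positive cells were sorted by flow cytometry after 4, 7 or 21 days, with 3 arrays per day. All 3 groups share the transgene and the medium and differ by day of collection. There is no group of unsorted or reporter-negative cells among the 9 arrays, and whether the line is 1 clone is not given in the labels. Afp signal averaged 5.72 on the log2 scale at day 4, 10.60 at day 7 and 13.07 at day 21, so the sorted marker was below background at day 4.

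Inhibitory serpins present a reactive centre loop as bait. When the target protease cuts it, the loop inserts into the body of the serpin and the protease is trapped in a covalent complex, so each molecule works once. Most genes of clades a, c, d, f and g encode secreted proteins, many of them products of hepatocytes and of yolk sac endoderm, and they restrain coagulation, fibrinolysis and complement or carry hormones. Clade b serpins lack a classical signal peptide and act mainly inside cells, while the clade h member is a collagen chaperone of the endoplasmic reticulum.

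Signals are log2 values per probe set. As a background level, the 95th percentile of 1088 olfactory receptor genes, which most cells do not express, was averaged over the arrays of each day. It lay at 6.05, 6.03 and 6.004 at days 4, 7 and 21. Where a day's mean is lower than this, the fold printed sets array signal against a floor and is not a ratio of transcript amounts. A gene was called at a limma adjusted p under 0.05 over all 22180 genes. Arrays of the 2 days did not overlap for 6630 genes between days 4 and 7 (11 of them serpins). The numbers were 7879 between days 7 and 21 (21 serpins) and 8966 between days 4 and 21 (22 serpins). Lack of overlap with 3 arrays per day is thus common. Whether arrays of the same day had separate cultures behind them is not in the labels, and p-values therefore reflect the spread among these 9 samples, which may be technical. In RNA from sorted cells, a change in the kind of cell sorted and a change of RNA per cell cannot be told apart.

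Most serpin transcripts were below background, and the called changes were mainly increases after day 7. At day 4, 7 of the 54 genes were above background, at day 7 again 7, and at day 21 the number was 16, against 54.0%, 54.7% and 56.7% of all genes on the same days. Between days 4 and 7, 5 serpin genes were called (3 higher, 2 lower), which is 9.26% of the family beside a background of 13.4% of all genes called (6.98% higher and 6.47% lower). Between days 7 and 21, 18 were called, 33.3% beside 23% of all genes. Of these 16 were higher and 2 lower, or 29.6% and 3.7% of the family, beside 12.4% and 10.7% of all genes. Day 21 against day 4 also gave 16 higher and 2 lower genes, beside 15% and 14.1% of all genes, with 29.1% of all genes called in either direction. The comparisons share arrays: 14 genes were higher at day 21 against both earlier days. In all, 21 of 54 serpin genes (38.9%) were called at least once, a share near the 36.2% of all genes. The family's median log2 change was 0.00 between days 4 and 7, 0.13 between days 7 and 21 and 0.13 between days 4 and 21, against -0.01, -0.03 and -0.03 over all genes.

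**Figure D1:**
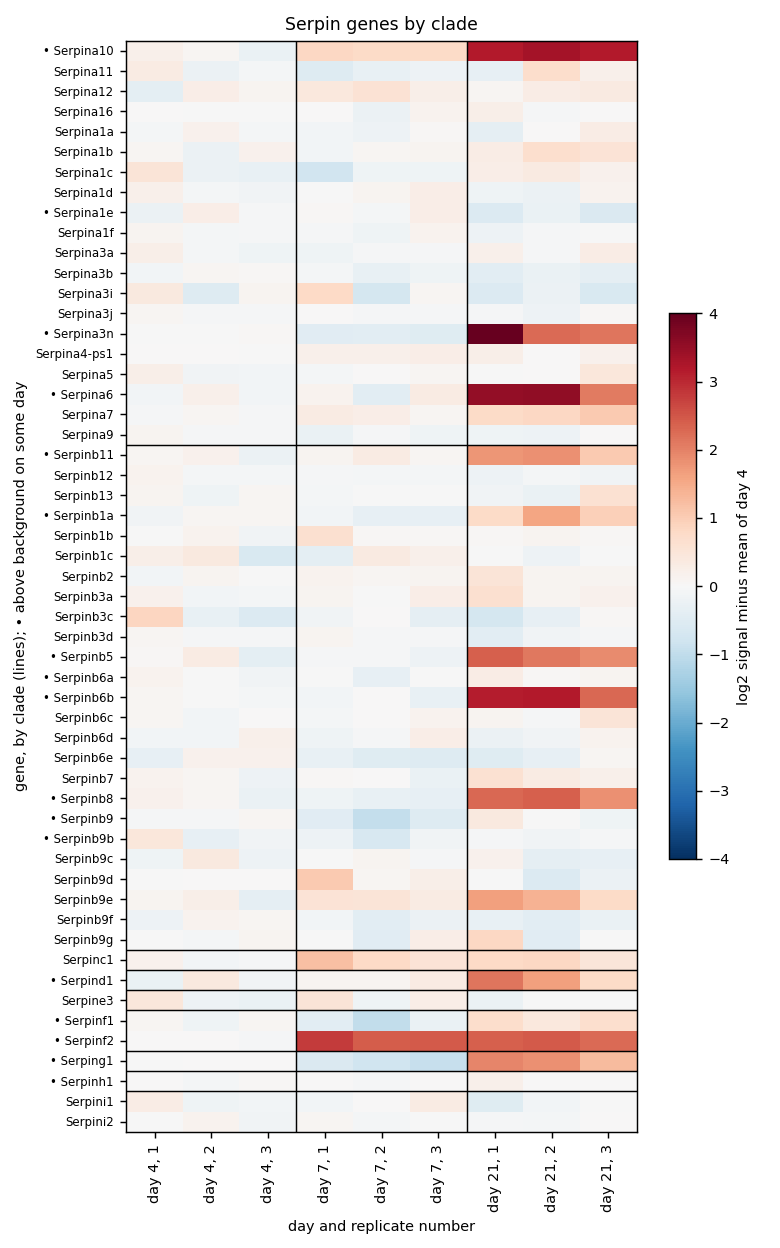
Each row is 1 of the 54 serpin genes, grouped by clade, each column 1 of the 9 arrays, and colour gives log2 signal minus the gene's mean at day 4. The strongest red at day 21 is in Serpina10, Serpina3n, Serpina6 and Serpinb6b, Serpinf2 is red at both later days, and many rows stay near white.

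By clade, the called changes after day 7 were spread over a, b, d, f and g. In clade a, 5 of 20 genes were higher and 1 lower at day 21 than at day 7, with a median log2 change of 0.09, and in clade b 8 of 25 were higher and 1 lower, with a median of 0.18. The single genes of clades d and g were higher, as was 1 of the 2 of clade f. Nothing passed in clades c, e, h and i in that interval. Of the 5 genes called between days 4 and 7, 1 belonged to each of clades a, b, c, f and g.

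Among inhibitors of the clotting and fibrinolytic enzymes, Serpinf2 had the largest early rise. Serpinf2 (probe set 17265976) encodes alpha-2-antiplasmin, the main inhibitor of plasmin. Its log2 signal was 5.25, 5.24 and 5.20 on the day 4 arrays, 8.04, 7.66 and 7.69 on those of day 7 and 7.62, 7.68 and 7.50 on those of day 21. All day 4 arrays were below background and all later arrays above it, and days 7 and 21 overlapped. The rise by day 7 was 5.91-fold, a log2 change of 2.56 ± 0.12 (SE, n = 3 arrays per day; limma adjusted p = 3.74e-07). From day 7 to day 21 the change of -0.20 ± 0.12 did not pass (limma adjusted p = 0.294). Plg, the precursor of its target plasmin, changed in the same early interval by 3.36 ± 0.18, and then fell by 0.89 on the log2 scale.

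Serpina10 (17283565), the protein Z-dependent inhibitor of activated factor X, rose in both intervals. Its values were 5.65, 5.52 and 5.19 at day 4, 6.29, 6.22 and 6.24 at day 7 and 8.62, 8.78 and 8.64 at day 21. The 3 days did not overlap, and day 7 lay just above background. The log2 change was 0.79 ± 0.12 by day 7 (limma adjusted p = 0.00149) and a further 2.43 ± 0.12 by day 21 (5.38-fold; limma adjusted p = 3.23e-07). It was, with Serping1, 1 of 2 serpin genes called in all 3 comparisons.

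Serpind1 (17323457), heparin cofactor II, a thrombin inhibitor activated by glycosaminoglycans, was called only after day 7. It measured 5.01, 5.68 and 5.13 at day 4, 5.39, 5.38 and 5.60 at day 7 and 7.41, 6.91 and 6.04 at day 21, so replicate 3 of day 21 was close to background. The rise from day 7 was 2.51-fold (1.33 ± 0.30, limma adjusted p = 0.00786). Serpinc1 (17218643), antithrombin, moved at the level of background: 5.22, 4.91 and 4.99 at day 4, 6.24, 5.83 and 5.59 at day 7 and 5.83, 5.88 and 5.52 at day 21. Its change by day 7 passed the test (0.85 ± 0.17, limma adjusted p = 0.00707), although the day means stayed below background on all 3 days. F2, the gene of prothrombin, whose active form antithrombin and heparin cofactor II inhibit, rose by 2.39 ± 0.19 between days 4 and 7 and did not pass after that (-0.27 ± 0.19); it was named after its values were seen.

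**Figure D2:**
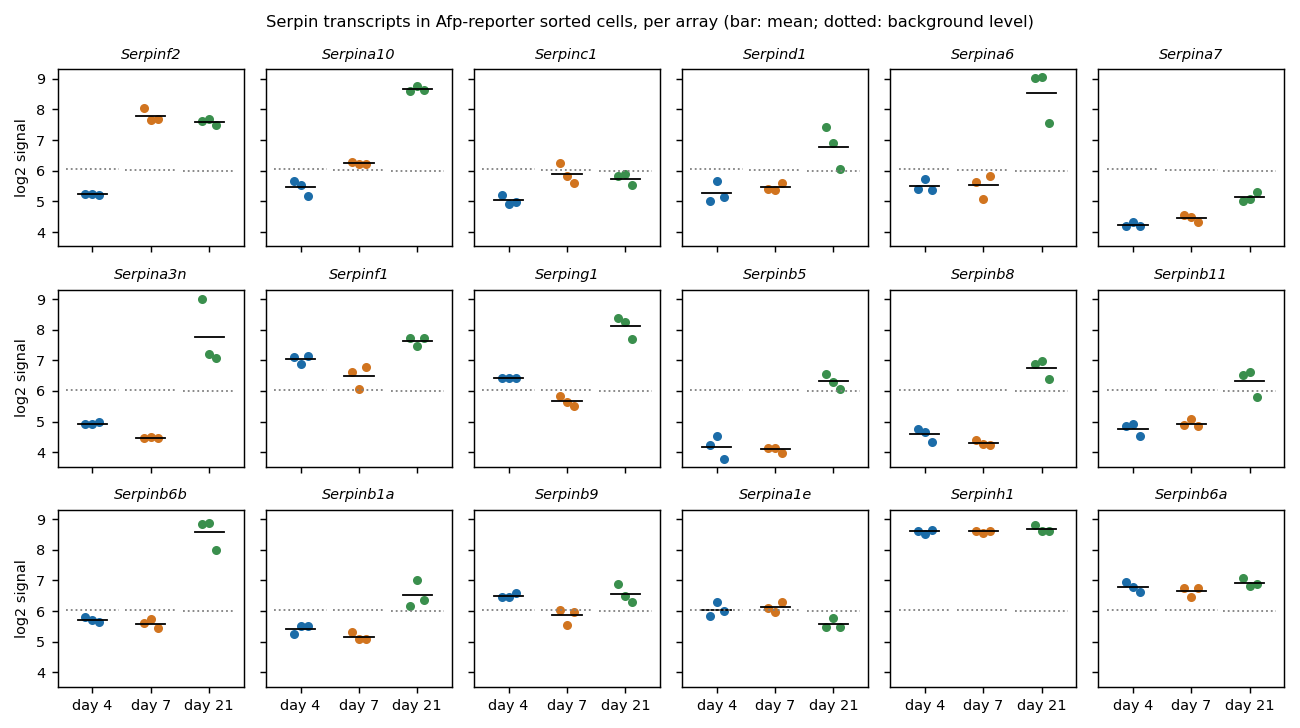
Each panel shows 1 gene: the points are the 3 arrays of days 4, 7 and 21 in replicate order, the y axis is log2 signal, the bar is the day mean and the dotted line the background level of that day. Serpinf2 is up from day 7, Serpina10 steps up at both days, most others are up at day 21 only, and Serpinh1 and Serpinb6a stay level.

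The hormone-carrying serpins of clade a, which bind ligand and do not inhibit proteases, were called at day 21. Serpina6 (17283573), corticosteroid-binding globulin, measured 5.41, 5.72 and 5.38 at day 4, 5.65, 5.09 and 5.82 at day 7 and 9.02, 9.05 and 7.57 at day 21. The earlier days overlapped and lay below background, and replicate 3 of day 21 was lower than the other 2 arrays of that day but above every earlier array. The rise from day 7 was 8.14-fold, a log2 change of 3.02 ± 0.35 (limma adjusted p = 1.21e-04). Serpina7 (17544837), thyroxine-binding globulin, had day means of 4.24, 4.47 and 5.13 and stayed below background, although its change of 0.67 ± 0.11 after day 7 passed (limma adjusted p = 0.00130). Agt, the gene of angiotensinogen, is a serpin by structure whose symbol lies outside the rule. It changed by 0.92 ± 0.15 after day 7, from a mean of 5.97 to 6.90.

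The alpha-1-antitrypsin genes, whose products restrain neutrophil elastase and are abundant in liver, gave signals at or below background. Serpina1a, Serpina1b, Serpina1c and Serpina1d had day means between 2.995 and 5.10, all below background. Serpina1b was called higher at day 21 than at day 7 (0.47 ± 0.14, limma adjusted p = 0.0339) within that range. Serpina1e (17283641) lay at the background level, with 5.83, 6.31 and 6.02 at day 4, 6.09, 5.97 and 6.31 at day 7 and 5.50, 5.78 and 5.47 at day 21. It was called lower at day 21 than at day 7 (-0.54 ± 0.15, limma adjusted p = 0.0230), a call that was lost when day 7 replicate 1 or 3 or day 21 replicate 1 or 3 was left out, with values of -0.56, -0.45, -0.50 and -0.48 and adjusted p between 0.0550 and 0.0887. It was also called lower at day 21 than at day 4 (-0.47 ± 0.15, limma adjusted p = 0.0353). That call was lost without day 4 replicate 2 or 3 or day 21 replicate 1 or 3 (-0.34, -0.49, -0.43 and -0.41) and with these days fitted alone (-0.47, adjusted p = 0.0527). These 5 genes are near-identical copies, so their probes may share transcripts. In the same cells Alb, the albumin gene, averaged 5.29 at day 4 and rose by 6.19 ± 0.15 between days 7 and 21.

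Serpina3n, Serping1 and Serpinf1, which encode secreted proteins, were each called higher at day 21 than at day 7. Serpina3n (17278328), an acute phase serpin related to alpha-1-antichymotrypsin, measured 4.92, 4.91 and 4.97 at day 4, 4.47, 4.50 and 4.46 at day 7 and 9.002, 7.20 and 7.07 at day 21. Days 4 and 7 lay below background. The first day 21 array stood well above the other 2, and all 3 stood above every earlier array. The rise from day 7 was 9.71-fold (3.28 ± 0.40, limma adjusted p = 1.63e-04), and 6.31-fold without day 21 replicate 1 (2.66 on the log2 scale). Against day 4 it was 7.08-fold, and 4.60-fold without that array. Its change from day 4 to day 7 (-0.46 ± 0.40), between levels below background, did not pass in the fit of 9 arrays. It did with the spread of those 2 days alone (limma adjusted p = 0.00818). The fit pools the spread of all days, and the SD of Serpina3n was 0.02 at day 7 and 1.08 at day 21. Serpina3 copies are similar in sequence, and of those around Serpina3n the 5 named at the start were not analysed here.

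Serping1 (17387517), the C1 inhibitor of complement and contact proteases, fell and then rose. It measured 6.42, 6.43 and 6.43 at day 4, 5.84, 5.63 and 5.51 at day 7 and 8.38, 8.26 and 7.69 at day 21, with no overlap between days. The fall by day 7 was -0.77 ± 0.17 (limma adjusted p = 0.0114) and ended below background, and the later rise was 5.46-fold (2.45 ± 0.17, limma adjusted p = 2.84e-06). Serpinf1 (17265958), pigment epithelium-derived factor, a secreted non-inhibitory serpin that restrains blood vessel growth, measured 7.12, 6.87 and 7.13 at day 4, 6.61, 6.05 and 6.77 at day 7 and 7.74, 7.46 and 7.71 at day 21. It was above background on every array. Its change by day 7 did not pass (-0.56 ± 0.18, limma adjusted p = 0.0628), and it rose 2.24-fold from day 7 to day 21 (1.16 ± 0.18, limma adjusted p = 7.32e-04). Day 21 against day 4 passed narrowly (0.60 ± 0.18, limma adjusted p = 0.0259). That call was lost with each array median-centred (0.49), with quantile normalization (0.51) and when any 1 of day 4 replicates 1, 2 and 3 or day 21 replicates 1 and 3 was left out (0.52 to 0.64), with adjusted p between 0.0502 and 0.0961 in these refits.

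**Figure D3:**
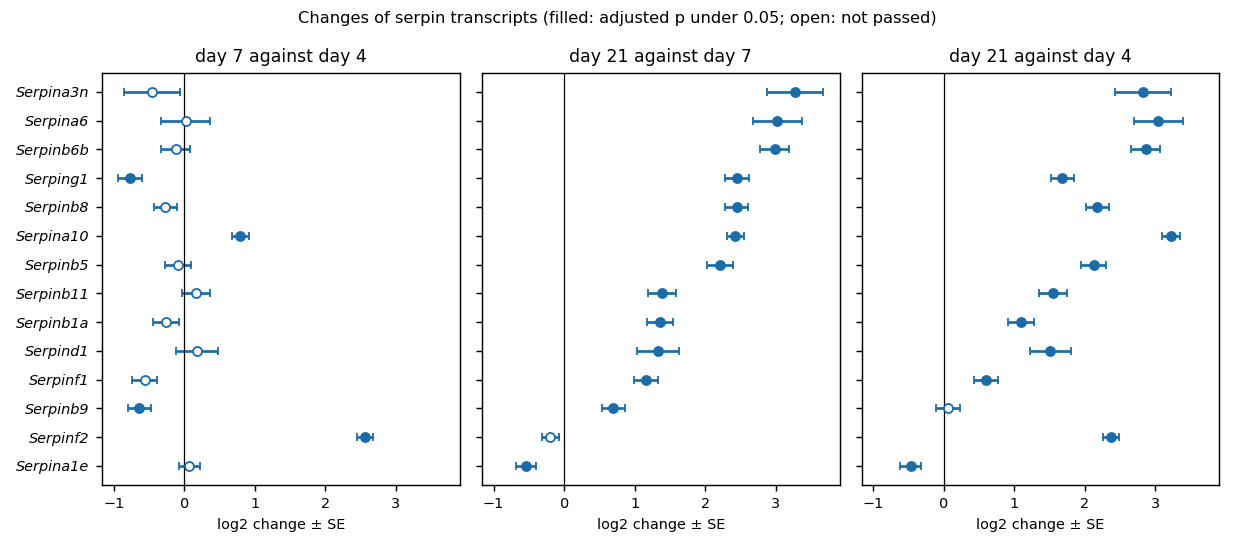
Log2 change with its SE for the 14 serpin genes that were called in some comparison and above background on some day, 1 panel per comparison; filled points passed and open points did not. Most points sit to the right in both day 21 panels, whereas in the first panel Serpinf2 and Serpina10 lie to the right and Serping1 and Serpinb9 to the left.

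Serpinf1 and Serpinf2 lie next to each other on chromosome 11, and their early changes differed in sign: Serpinf2 rose by 2.56 while Serpinf1 changed by -0.56, which did not pass. Their promoter windows are shown because the neighbours had different courses over the same arrays. The windows run from 250 bases before to 50 bases after the RefSeq start (GRCm38.p6), 5′ to 3′ on the gene's strand, with matches to the searched motifs in capitals.
Serpinf2 (chr11:75439452-75439751, minus strand): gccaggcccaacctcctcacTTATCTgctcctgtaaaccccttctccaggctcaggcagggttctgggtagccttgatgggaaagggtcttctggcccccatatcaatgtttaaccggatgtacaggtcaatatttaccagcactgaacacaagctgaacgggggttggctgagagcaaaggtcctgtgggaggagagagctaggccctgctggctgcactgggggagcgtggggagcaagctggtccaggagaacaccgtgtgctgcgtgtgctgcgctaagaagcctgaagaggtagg
Serpinf1 (chr11:75422574-75422873, minus strand): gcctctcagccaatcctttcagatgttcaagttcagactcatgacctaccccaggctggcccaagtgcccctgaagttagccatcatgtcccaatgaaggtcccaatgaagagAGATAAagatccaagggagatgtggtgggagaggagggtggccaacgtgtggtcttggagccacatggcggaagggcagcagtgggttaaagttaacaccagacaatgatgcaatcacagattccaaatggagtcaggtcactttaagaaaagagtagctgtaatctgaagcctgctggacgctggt
Short motifs were searched as letters on both strands, and a match is a description and not a binding site. The HNF1 consensus of hepatocyte genes stood in 0.399% of all 32851 promoter windows and in 0 of 55 serpin windows. For HNF4 the letters were CAAAGTCC, found in 1.42% of all windows and 1.82% of serpin windows. For FOXA factors TGTTTAC was used, found in 3.65% and 0%. The C/EBP letters TTGCNNAA stood in 10.8% of all windows and in 27.3% of those of serpins. STAT was searched as TTCNNNGAA, found in 8.3% and 14.5%. The TATA box was searched as TATAAA, in 13.6% and 27.3%, and SP1/KLF as GGGCGG, in 35.7% and 12.7%. GATA factors were searched as AGATAA, in 11.2% and 18.2%. In both windows the match was to the GATA letters, at position -230 for Serpinf2, where they read on the opposite strand, and at -137 for Serpinf1. Positions are counted from the start site. Windows were found for 47 of the 54 serpin genes, and for 10 of the 14 called genes above background. Serpina10, Serpina6, Serpinb1a and Serping1 had no window, so no motif was searched for them. Some genes have more than 1 window and some are near-identical copies, so the shares of the 55 serpin windows count similar sequence repeatedly.

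Clade b, the intracellular serpins, contributed 6 of those 14 genes, and 3 of them lie in the cluster on chromosome 1. Serpinb5 (17216402), maspin, a serpin of epithelial cells, measured 4.24, 4.52 and 3.80 at day 4, 4.14, 4.15 and 3.99 at day 7 and 6.56, 6.29 and 6.07 at day 21. Serpinb8 (17216478), a cytosolic inhibitor able to inhibit furin, measured 4.75, 4.67 and 4.32 at day 4, 4.40, 4.27 and 4.25 at day 7 and 6.88, 6.98 and 6.41 at day 21. Serpinb11 (17216436) measured 4.84, 4.93 and 4.53 at day 4, 4.87, 5.08 and 4.85 at day 7 and 6.54, 6.61 and 5.81 at day 21. For all 3 genes the day 21 arrays stood above every earlier array, and days 4 and 7 lay below background. Serpinb11 on replicate 3 of day 21 stayed below background. Serpinb5 on that array, at 6.07, exceeded the background averaged over the day. It was below the 95th percentile of olfactory receptor genes on that array alone, 6.16.

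From day 7 to day 21 Serpinb5 rose 4.64-fold (2.21 ± 0.18, limma adjusted p = 1.06e-05), Serpinb8 5.46-fold (2.45 ± 0.16, limma adjusted p = 2.36e-06) and Serpinb11 2.61-fold (1.38 ± 0.20, limma adjusted p = 5.20e-04). Their changes before day 7, of -0.09, -0.27 and 0.17, did not pass. In chromosomal order Serpinb5 and Serpinb8 are the outermost genes of this cluster. Between them, Serpinb12, Serpinb13, Serpinb3a, Serpinb3d, Serpinb3c and Serpinb2 did not pass, and Serpinb3b and Serpinb10 were not analysed here. Serpinb7, beside Serpinb11, was called higher (0.45 ± 0.14, limma adjusted p = 0.0477) at a mean of 3.50, below background. A probe set shared by Serpinb10 and Serpinb2 was left out by the rule and not tested. Its means were 4.47, 4.27 and 5.37 at days 4, 7 and 21, below background.

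The promoter windows of the 3 genes are given because they rose together from one cluster; capitals mark motif matches, which in Serpinb5 are AP-1 and then SP1/KLF, and in the other 2 AP-1 alone.
Serpinb5 (chr1:106860925-106861224, plus strand): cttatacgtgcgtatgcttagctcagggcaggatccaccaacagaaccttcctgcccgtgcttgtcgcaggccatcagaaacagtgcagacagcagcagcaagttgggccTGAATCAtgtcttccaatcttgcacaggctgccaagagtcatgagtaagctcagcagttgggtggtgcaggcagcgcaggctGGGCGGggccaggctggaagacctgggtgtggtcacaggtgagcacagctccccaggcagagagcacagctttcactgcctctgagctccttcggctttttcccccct
Serpinb8 (chr1:107589756-107590055, plus strand): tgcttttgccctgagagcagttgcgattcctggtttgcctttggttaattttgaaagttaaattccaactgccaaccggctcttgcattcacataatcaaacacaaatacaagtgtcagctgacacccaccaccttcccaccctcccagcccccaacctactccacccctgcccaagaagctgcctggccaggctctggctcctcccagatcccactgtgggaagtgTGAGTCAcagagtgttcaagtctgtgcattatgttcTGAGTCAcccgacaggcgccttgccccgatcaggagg
Serpinb11 (chr1:107362064-107362363, plus strand): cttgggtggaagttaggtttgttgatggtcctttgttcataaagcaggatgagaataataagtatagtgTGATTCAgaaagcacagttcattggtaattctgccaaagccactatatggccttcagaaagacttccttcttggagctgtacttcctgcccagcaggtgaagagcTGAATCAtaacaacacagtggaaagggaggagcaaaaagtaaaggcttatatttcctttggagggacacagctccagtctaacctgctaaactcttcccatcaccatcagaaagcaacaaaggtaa
For AP-1 the letters TGANTCA were searched. Each of the 3 windows holds them: Serpinb5 at position -140, Serpinb8 at -23 and 14, and Serpinb11 at -181 and -76. These letters stand in 7.81% of all promoter windows and in 11 of 55 serpin windows (20.0%). By gene, 10 of the 47 serpin genes with a window held them. Among these are Serpina1a, Serpina1b, Serpina1c and Serpina1d, which are near-identical copies. The usual AP-1 core TGAGTCA, a subset of those letters found in 5.2% of all windows, was matched in Serpinb8 at both positions and not in the other 2. Of the 9 measured chromosome 1 clade b genes with a window, 6 held TGANTCA in at least 1 window: the 4 that were called higher at day 21, and 2 of the 5 that were not, Serpinb12 and Serpinb2. The 4 include Serpinb7, below background at a day 21 mean of 3.50. Serpinb2 was counted by its own probe set, without the one shared with Serpinb10. This split concerns 1 of 10 motifs searched and was made after the values were seen, so it is a description and not a test.

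**Figure D4:**
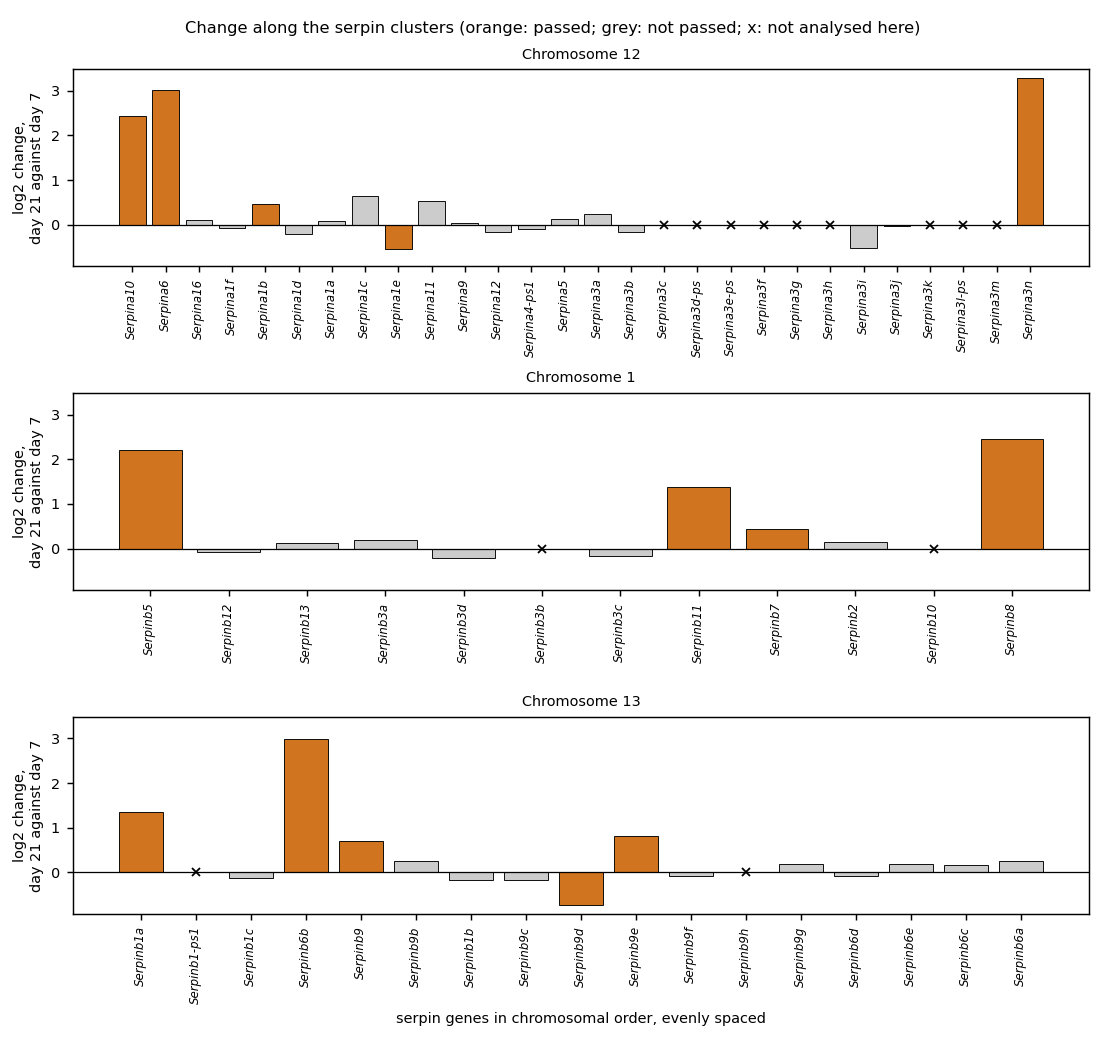
Bars give the log2 change from day 7 to day 21 for the serpin genes of chromosomes 12, 1 and 13 in chromosomal order, evenly spaced; orange bars passed, grey bars did not, and crosses mark genes not analysed here. The tall bars are Serpina10, Serpina6 and Serpina3n on chromosome 12, Serpinb5 and Serpinb8 on chromosome 1 and Serpinb6b on chromosome 13, with lower called bars for Serpinb11 (1.38) and Serpinb1a (1.36).

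The other clade b cluster, on chromosome 13, gave 3 more of the 14 genes. Serpinb6b (17286354), of the group of intracellular serpins around proteinase inhibitor 6, measured 5.81, 5.72 and 5.64 at day 4, 5.61, 5.74 and 5.43 at day 7 and 8.85, 8.89 and 8.01 at day 21. It rose 7.94-fold after day 7 (2.99 ± 0.21, limma adjusted p = 3.08e-06), from below background. Serpinb1a (17291694), an inhibitor of neutrophil elastase and cathepsin G, measured 5.27, 5.50 and 5.50 at day 4, 5.32, 5.10 and 5.08 at day 7 and 6.18, 7.00 and 6.38 at day 21, a rise of 2.56-fold after day 7 (1.36 ± 0.19, limma adjusted p = 3.95e-04).

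Serpinb9 (17286365), of the group that inhibits granzyme B, dipped at day 7. It measured 6.46, 6.45 and 6.59 at day 4, 6.04, 5.56 and 5.98 at day 7 and 6.88, 6.48 and 6.31 at day 21, so that days 4 and 21 overlapped. The fall by day 7 was -0.64 ± 0.17 (limma adjusted p = 0.0274). It was lost without day 4 replicate 1, 2 or 3 or day 7 replicate 2, with values of -0.66, -0.67, -0.60 and -0.49 and adjusted p between 0.0664 and 0.0955. The later rise of 0.70 ± 0.17 was called (limma adjusted p = 0.0111), and day 21 against day 4 was not (0.06 ± 0.17). The paralogues Serpinb9e and Serpinb9d were also called after day 7, at 0.80 ± 0.22 and -0.72 ± 0.23, with day means of at most 4.83 and 3.60, below background.

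A further group was above background on every day and called in no comparison. Serpinb6a (17291746), an intracellular serpin of the same group as Serpinb6b, ran from 6.46 to 7.07 over the 9 arrays, and its change after day 7 was 0.26 ± 0.13 (limma adjusted p = 0.181). Serpinb9b (17286375) ran from 7.92 to 8.999 over the 9 arrays with no change past 0.32 in size. A second Serpinb9b probe set gave day means of 4.57, 4.57 and 4.47, below background, so the 2 probe sets of this gene differ in whether they exceed background.

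Serpinh1 (17493658), the collagen chaperone HSP47, completed this group, at 8.62, 8.53 and 8.66 at day 4, 8.62, 8.56 and 8.62 at day 7 and 8.81, 8.62 and 8.61 at day 21. The 3 days overlapped, and its changes were 0.00 ± 0.10 by day 7 (limma adjusted p = 0.998) and 0.08 ± 0.10 after it (limma adjusted p = 0.640). Of 10 procollagen genes, whose products Serpinh1 binds, 7 were higher and 1 lower at day 21 than at day 7, with a median log2 change of 1.28, beside 12.4% and 10.7% of all genes and a median of -0.03. Col1a1, the main fibrillar collagen chain, changed by 3.80 ± 0.25, Col12a1 by 3.82 ± 0.28, Col3a1 by 2.98 ± 0.26 and Col1a2 by 2.81 ± 0.19 in that interval.

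The other 30 serpin genes were below background on all days and called in no comparison. Their day means lay between 2.45 and 5.86, their changes between -0.51 and 0.64, and their lowest limma adjusted p was 0.0624. They include Serpini1, the neuroserpin of neurons, Serpini2, a serpin of the exocrine pancreas, Serpina5, the inhibitor of activated protein C, Serpina9, Serpina11, Serpina12, Serpine3 and 14 genes of clade b. Serpina3b was called lower at day 21 than at day 4 (-0.34 ± 0.10, limma adjusted p = 0.0267), likewise at a level below background.

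Proteases and inhibitors outside the family were counted from lists written with earlier results of these data known. Over all genes, 6.98% were called higher and 6.47% lower by day 7 (median -0.01), and 12.4% higher and 10.7% lower after it (median -0.03). Of 37 measured serine proteases of plasma, cell surface and pericellular space, 8 were higher and 1 lower at day 7 than at day 4 (median 0.03). After day 7, 7 were higher and 4 lower (median 0.00), beside 23% of all genes called in either direction. The largest called changes by day 7 were those of Plg, Prss12, a neuronal-type trypsin-like protease (2.99 ± 0.12), Tmprss2, a transmembrane protease of epithelia (2.94 ± 0.13), and Htra1, a secreted protease (-2.47 ± 0.21). After day 7 they were those of Prss12 (-3.10 ± 0.12), Htra1 (2.16 ± 0.21), Masp1, a protease of the lectin pathway (1.55 ± 0.13), and Cfb, complement factor B (1.27 ± 0.11). A further list held 12 measured proteases, mainly lysosomal and cytosolic, with Furin also listed. Of these, 9 were higher and 0 lower at day 7 (median 0.97), led by the cathepsin Ctsh (3.32 ± 0.13). At day 21 against day 7, 3 were higher and 5 lower (median -0.06), with Ctsh at -2.24 ± 0.13.

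Of 30 protease inhibitors of other families, 9 were higher and 1 lower at day 7 than at day 4 (median 0.10), beside 6.98% and 6.47% of all genes. At day 21 against day 7, 12 were higher and 2 lower (median 0.39), beside 12.4% and 10.7% of all genes. After day 7 the largest called changes were those of Pzp, a broad inhibitor of the alpha-2-macroglobulin family (4.01 ± 0.20), Ambp, the precursor of the inhibitor bikunin (3.35 ± 0.19), Spink1, a trypsin inhibitor (-3.15 ± 0.12), and Ahsg, fetuin-A (2.76 ± 0.25). Of 13 receptors and cofactors of serpins, 4 were higher and 4 lower by day 7 (median -0.11), and 7 were higher and 3 lower after it (median 1.06). Vtn, vitronectin, an adhesive glycoprotein of plasma and matrix, changed by 4.07 ± 0.10 after day 7 and Plaur, the urokinase receptor, by 2.78 ± 0.22, whereas Lrp2, the endocytic receptor megalin, changed by -1.60 ± 0.33 and Gpc3, a cell-surface heparan sulphate proteoglycan, by -1.39 ± 0.11.

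**Figure D5:**
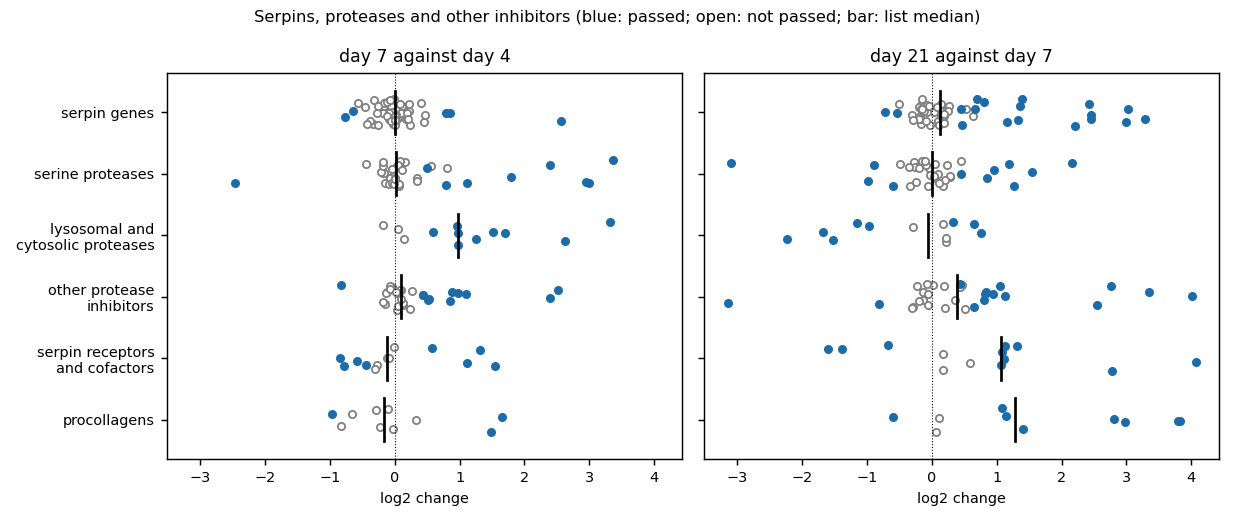
Each point is 1 gene of the serpin family or of a related list, the x axis is its log2 change by day 7 (left) or from day 7 to day 21 (right), blue points passed, open points did not, and bars are list medians. The serpin medians are 0.00 and 0.13, with a tail to the right after day 7, while the lysosomal list has its median at 0.97 by day 7.

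The day 21 arrays were unequal for many of the serpins that rose. Of the 16 genes higher at day 21 than at day 7, replicate 3 was the lowest array of its day for 11, replicate 1 for 4 and replicate 2 for 1. The arrays also differed as a whole. The 95th percentile of olfactory receptor genes was 5.98, 5.865 and 6.16 on replicates 1, 2 and 3 of day 21. The median of all probe sets was 5.91, 5.92 and 5.98 on the same arrays. The part of these array differences in the serpin order was not tested. Marker genes of other cells moved with the day as well, in an interval in which 12.4% of all genes were called higher and 10.7% lower. Of 10 mesenchyme and fibroblast genes, 9 were higher at day 21 than at day 7, all 10 were above background at day 21, and their summed signal ran from 9.91 to 10.22 (log2) at day 7 and from 12.83 to 13.86 at day 21. Their mean signal was 9.62, 9.16 and 8.76 on replicates 1, 2 and 3 of day 21. Col1a1, Col1a2 and Col3a1 are in this list and among the procollagens above. Likewise Ambp, Ahsg and Vtn are hepatocyte genes below and inhibitors or cofactors above, so these lists are not separate observations. Of 9 measured basal and squamous epithelial genes, 8 were higher, the summed signal ran from 9.02 to 9.26 at day 7 and from 13.15 to 13.38 at day 21, and Dsg3 was the 1 still below background. Their means on the day 21 arrays were 8.84, 8.69 and 8.67. Of 10 hepatocyte and hepatoblast genes, 8 were higher, the summed signal ran from 10.49 to 10.54 at day 7 and from 13.002 to 13.36 at day 21, and the day 21 means were 9.14, 9.18 and 8.74. Of 13 visceral endoderm genes, 12 were lower and 1 higher at day 21 than at day 7. All 13 had been called higher at day 7 than at day 4. The 1 higher gene was Afp (2.47 ± 0.11), the sorted marker itself, so its rise is not independent of the sort. The summed signal of the 13 genes ran from 10.34 to 10.58, 14.72 to 14.76 and 13.80 to 13.97 on the 3 days. These sums include Afp, which averaged 10.60 at day 7 and 13.07 at day 21. They therefore understate the fall of the other 12 genes after day 7. The part of any of these cell types in the serpin changes was not tested. Of 8 leukocyte genes 2 were higher and 0 lower, and the summed signal ran from 9.80 to 9.96 at day 7 and from 10.04 to 10.16 at day 21. Csf1r, a receptor of macrophages, changed by 1.51 ± 0.11 to a mean of 7.42, and Lyz2, their lysozyme gene, by 1.07 ± 0.17 to 5.91, below background. Cd68, a lysosomal gene high in macrophages, averaged 9.36 at day 21 and did not pass, and the other 5, with the surface marker Ptprc at 4.38, were below background. The part of leukocytes in the serpin changes was likewise not tested. Without replicate 3 of day 21, 15 serpin genes were called between days 7 and 21, all of them higher.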

How the data were processed

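Arrays were hybridised with cDNA from 500 pg of total RNA of each of the 9 sorted samples, labelled with the WT Pico kit per the labels' protocols. The authors deposited log2 signals for each probe set. The submitters' processing notes name Affymetrix Expression Console and RMA; their versions and a genome build were not given in the sources used here. Such normalization brings the arrays to a common distribution, so a shift of all transcripts together is largely removed, and labelling of small inputs can distort ratios of dim transcripts. Precision is limited by the number of arrays. The table held 34365 probe sets, of which 23521 carried 1 gene symbol in the platform annotation, 1814 several and 9030 none here. Of those with 1 symbol, 23328 matched a RefSeq table of GRCm38.p6 by gene number and 0 symbols changed. The 2 serpin probe sets with several symbols were left out.

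The model held 1 mean for each day and used every array. It was fitted in R 4.3.3 by lmFit and eBayes of limma 3.58.1, without a block, with two-sided tests and Benjamini-Hochberg adjustment over 22180 genes per comparison. SE is that of the model. The procedure was tested on simulated data. Genes described with all arrays are those called in at least 1 comparison and above background on at least 1 day; from each related list up to 4 called genes with the largest changes are named. The serpin rule, the lists and the tests were chosen with earlier results of these data known, and the promoters printed were chosen after the values were seen. Alternatives were 2 scalings between arrays, the mean of a gene's probe sets, a filter on dim genes, eBayes with trend and robust, the 2 days compared alone, array weights, the replicate block, other thresholds and leaving out each array.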

Additional observations from a re-analysis of the deposited data

How the results depend on the processing

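Of 30 calls of the 14 named serpin genes, 26 held in every refit with another scaling, probe set rule, filter, variance model, sample set, weight or block and with each array left out; the others are the Serpinb9, Serpina1e and Serpinf1 calls described with those genes, and 0 changed direction. Leaving out each replicate in turn gave 4 to 6 called serpin genes at day 7 against day 4 (5 with all arrays). Day 21 against day 7 gave 13 to 16 (18 with all), and day 21 against day 4 gave 14 to 18 (18 with all). An adjusted p under 0.01 left 3 serpin genes between days 4 and 7, and a minimum of 2-fold left 1 (Serpinf2); between days 7 and 21 the same minimum left 11. These thresholds are stricter by construction. Serpinf1 passed at day 7 against day 4 in 4 refits, at -0.56 with the dim-gene filter, with trend and robust or with the replicate block, and at -0.71 without day 7 replicate 3. Replicate numbers are shared between days. Deviations of same-numbered arrays correlated at -0.05 to 0.26, and those of differently numbered arrays at -0.18 to 0.07. Between days 7 and 21 the same-numbered pairs gave 0.08, 0.14 and 0.26, each above every differently numbered pair of those days. Whether same-numbered arrays of days 7 and 21 share a culture or a batch is not given in the labels and was not tested. With the replicate block, 6, 18 and 19 serpin genes were called in the 3 comparisons. Median-centring moved the median of all genes between days 4 and 21 from -0.03 to -0.14; serpin counts there were 15 higher and 3 lower.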
